A study of Rattus norvegicus with 24 samples.

Results

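Lungs of rats given whole-cigarette smoke condensate (WCSC) at 10 mg/mL were compared between 12 days and 6 days. The members are the 6 libraries that the labels place at this dose, 3 at 12 days and 3 at 6 days, of 24 libraries in the series, and every gene in the count tables was carried through, with the row of highest total count kept where a symbol was repeated. The study profiled rat lung after repeated exposure to the condensate at 5, 10 or 20 mg/mL and in controls, each at 6 and 12 days with 3 libraries per group. Genotype is given as WT for all groups. The labels do not give the strain, age, sex, route of dosing or control agent, nor whether replicates are separate animals, so p-values below measure only the spread between these samples, which may be technical. Libraries were made from total RNA with a Lexogen QuantSeq kit, which reads the polyadenylated end of transcripts so that counts do not scale with transcript length.

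Cigarette smoke condensate holds polycyclic hydrocarbons, aldehydes, metals and nicotine. Lung cells answer such agents through the aryl hydrocarbon receptor, which turns on Cyp1a1, and through NRF2, which turns on Nqo1 and Hmox1, while alveolar macrophages take up particles and lipid and draw in other leukocytes. A whole piece of lung also carries blood, lymphoid tissue, airway and vessel wall, and can carry heart or fat at its edges. In bulk RNA, fewer cells of a type and less RNA per cell cannot be told apart.

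No single gene passed the test between 12 and 6 days at 10 mg/mL. Of 11421 genes tested, 0 had an adjusted p under 0.05, a share of 0 percent, and the smallest adjusted p was 0.896 (edgeR quasi-likelihood test, Benjamini-Hochberg). DESeq2 and limma voom also called 0. At an unadjusted p under 0.05 there were 208 genes higher at 12 days, or 1.82 percent, and 302 lower, or 2.64 percent. The 3 and 3 libraries did not overlap for 534 genes that were higher at 12 days, or 4.68 percent, and for 478 that were lower, or 4.19 percent. Counts of list members below are to be read beside these shares of all genes. The median log2 fold change of all genes was -0.01, with the 5th and 95th percentiles at -0.73 and 0.87. The same comparison in control lungs had 281 genes at an unadjusted p under 0.05 and 0 calls. The number at 10 mg/mL depended on single 6-day libraries: 510 in all became 190 without replicate 1, 313 without replicate 2 and 1820 without replicate 3. Intervals given for single genes below are unadjusted 95% intervals of the edgeR log2 fold change, and an interval that leaves out 0 is not a gene that passed.

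**Figure D1:**
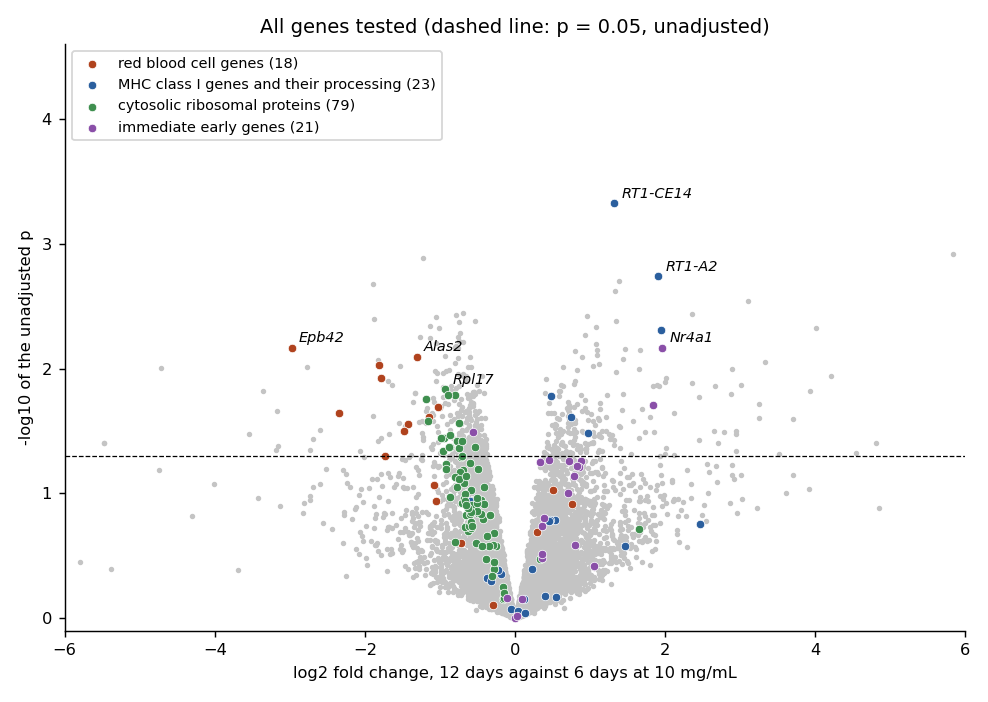
Each point is 1 of the 11421 genes tested, with the log2 fold change between 12 and 6 days at 10 mg/mL on the x axis and -log10 of the unadjusted p on the y axis (4 genes lie outside the x axis). Red blood cell genes and ribosomal protein genes lie mostly left of 0, MHC class I and immediate early genes mostly right of 0, and no gene passed the adjusted threshold.

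The 6-day libraries were less alike than the 12-day ones. CPM below are counts scaled to a common library size. Pairwise correlations of log2 CPM were 0.927 to 0.954 within the 6-day group, 0.955 to 0.964 within the 12-day group and 0.923 to 0.967 between them. Read totals ran from 5656349 to 9613751 in the 6 libraries. At an equal depth of 4758014 reads the 6-day libraries held 11558, 11723 and 12256 genes with a read, and the 12-day libraries 12204, 12020 and 12371 (exact two-sided permutation p = 0.3). Replicates 1 and 2 at 6 days were among the 8 of 24 libraries in which the fewest genes were found, called the 8 sparsest libraries here. Their part in the results was not tested, and lists whose median crosses 0 without those 8 are also given that way. That fit leaves only replicate 3 at 6 days and assumes that it varies like the other groups. Lung markers were present: in the 6 libraries Sftpc, the type II surfactant gene, ran from 7269 to 11611 CPM, Ager, a type I cell gene, from 4917 to 7873 CPM, and Pecam1, an endothelial gene, from 145 to 220 CPM. Foxj1, the ciliated cell regulator, was low, at 1.64 to 12.6 CPM.

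**Figure D2:**
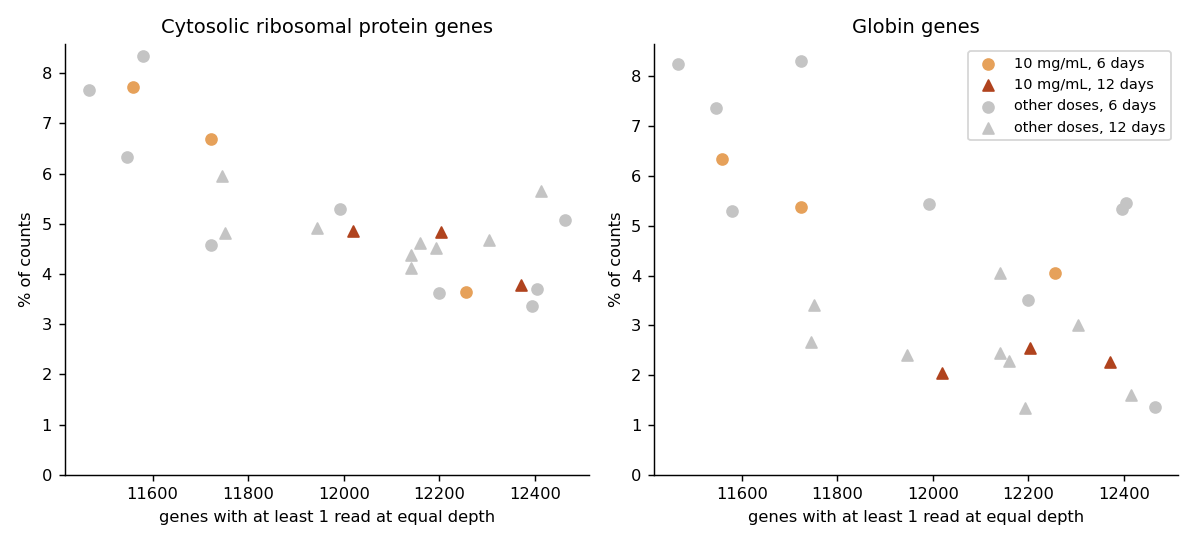
For each of the 24 libraries, the share of counts in cytosolic ribosomal protein genes (left) and globin genes (right) in percent is plotted against the number of genes with a read at equal depth. Of the 10 mg/mL libraries, 6-day replicates 1 and 2 lie to the left with the highest shares of both, and the 12-day libraries lie together at globin shares of 2.05 to 2.54 percent.

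Red blood cell genes were mostly lower at 12 days. Mature red cells keep globin RNA and little else, while precursors also carry the heme synthesis enzymes and membrane skeleton genes. Globin genes took 6.35, 5.38 and 4.04 percent of counts at 6 days and 2.54, 2.05 and 2.27 percent at 12 days, so every 6-day library lay above every 12-day library (exact two-sided permutation p = 0.1, the smallest that 3 against 3 allows). Of 18 red blood cell genes tested, 15 had a log2 fold change below 0 and 3 above, and 0 passed the adjusted test. At an unadjusted p under 0.05, 9 were lower and 0 higher, beside 2.64 and 1.82 percent of all genes. Without overlap, 10 were lower and 1 was higher, beside 4.19 and 4.68 percent of all genes. Their median log2 fold change was -1.11, beside -0.01 for all genes. The control lungs also had lower values at 12 days, with a list median of -0.46, as did the 5 mg/mL lungs at -1.49 and the 20 mg/mL lungs at -0.83. Without the 8 sparsest libraries the median at 10 mg/mL was -0.38, and with each of the 6 libraries left out in turn it was -1.35 to -1.01.

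Alas2, the rate-limiting heme synthesis enzyme of red cell precursors, was measured at 243, 198 and 164 CPM at 6 days and 95, 68.7 and 80.2 CPM at 12 days. The groups did not overlap, and the log2 fold change was -1.31 ± 0.45 (SE, 95% interval -2.24 to -0.38). In control lungs Alas2 went from 331, 227 and 159 CPM at 6 days to 157, 128 and 94.6 CPM at 12 days, with all 12-day values below all 6-day values, and the difference between the log2 fold changes was -0.39 (95% interval -1.69 to 0.91). Hba1, an alpha globin, stood at 19198, 15857 and 13805 CPM at 6 days and at 8431, 5674 and 8018 CPM at 12 days, again without overlap, with a log2 fold change of -1.14 ± 0.47 (SE). Hbb, a beta globin, stood at 9078, 5753 and 2676 CPM at 6 days and 1972, 1972 and 1042 CPM at 12 days, a log2 fold change of -1.81 ± 0.64 (SE). Among its 6-day values replicate 3 was lowest, and it still lay above the 12-day values. Globin copies are near identical, and how reads were split among them is not given in the sources used here.

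Other genes of the lineage were also lower in the fit, several of them at low counts. Ahsp, the chaperone of free alpha globin, was at 54.8, 36.3 and 17.7 CPM at 6 days and 13.9, 15.7 and 10.9 CPM at 12 days. Fech, the last enzyme of heme synthesis, was at 83.3, 63.0 and 37.2 CPM and then 34.5, 33.7 and 21.7 CPM. Neither gene overlapped between the times. Sptb, the red cell beta spectrin, was near the detection limit, with 3.59, 2.36 and 3.65 CPM at 6 days and 0.425, 1.33 and 0.136 CPM at 12 days. Epb42, a membrane skeleton protein, overlapped between the times, at 5.74, 4.10 and 0.561 CPM and then 0.567, 0 and 0.681 CPM, although its fitted log2 fold change was -2.97 ± 1.00 (SE). Rhd, which carries the Rhesus antigen, also overlapped, and Klf1, the erythroid transcription factor, had a log2 fold change of -1.73 (95% interval -3.47 to 0.00). The 3 members above 0 included Tal1, a transcription factor that endothelial cells also express, at 0.30, and Gypc, a glycophorin found in many tissues, at 0.51. The remaining member had the largest value of the list, 0.76. Glrx5, a mitochondrial glutaredoxin needed for iron-sulfur clusters and heme synthesis, is no member of the list but was first by unadjusted p among named genes lower at 12 days. It measured 81.1, 105 and 58.1 CPM at 6 days and 33.3, 44.2 and 27.1 CPM at 12 days, without overlap, a log2 fold change of -1.22 ± 0.33 (SE, 95% interval -1.91 to -0.53), beside -1.0 in the controls.

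**Figure D3:**
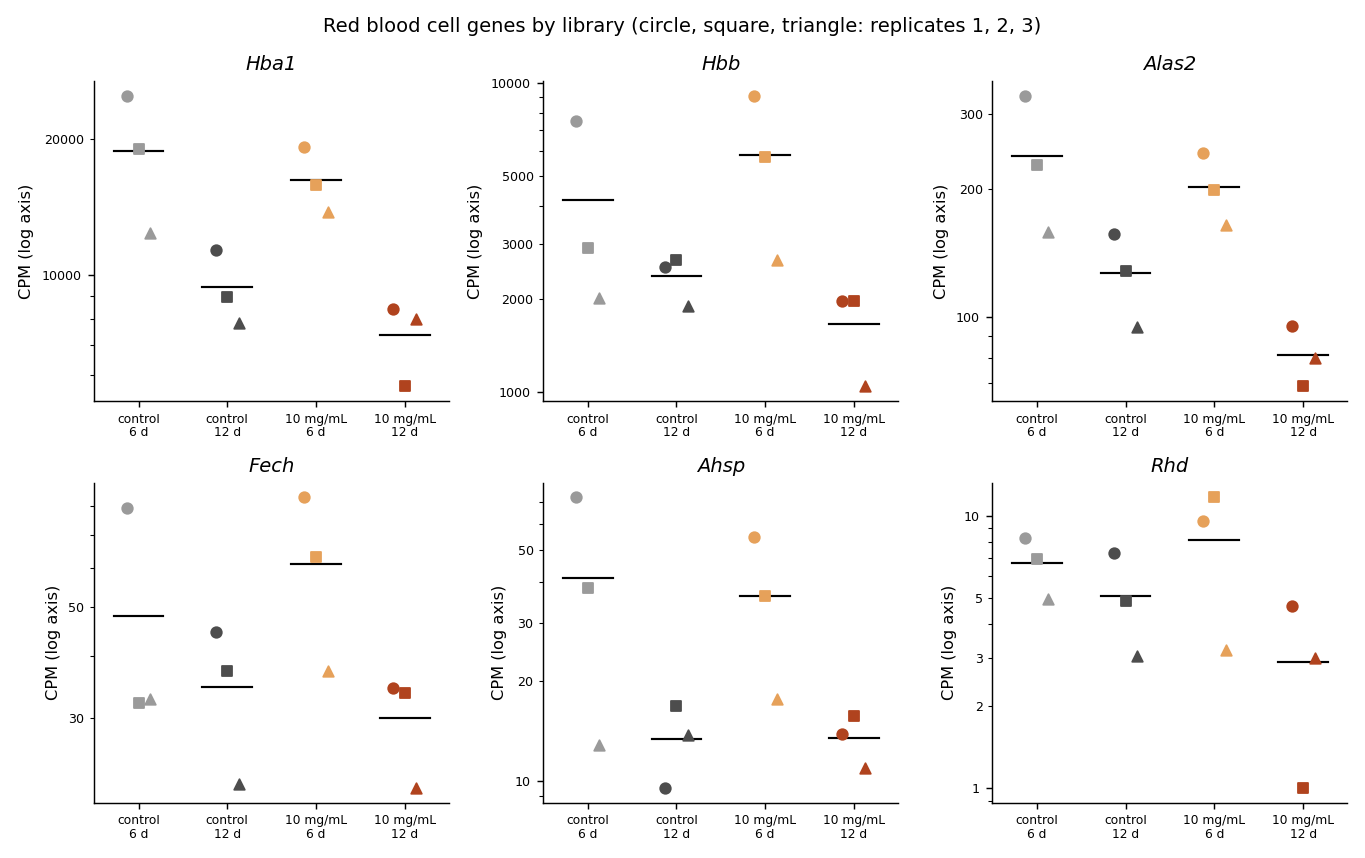
CPM on a log axis of red blood cell genes in control and 10 mg/mL lungs at 6 and 12 days, with 1 point per library (circle, square and triangle for replicates 1, 2 and 3) and a bar at the group mean. At 10 mg/mL the 12-day values of Alas2 (68.7 to 95 CPM) lie below all 6-day values, and the control lungs show the same order.

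Promoters of red blood cell genes are shown because most members were lower together and the lineage is known for GATA factors, which bind the letters AGATAA. The RefSeq table (GRCr8) gave promoters, 250 bases before to 50 after the start, for 12 of the 18 genes tested. AGATAA on either strand was found in 5 of their 13 promoters, or 38.5 percent, against 11.6 percent of all 33469 promoters of the same length. The matches were in Alas2, Sptb, Fech, Hemgn and Rhd. A match is a description of letters and not of a bound site, and the share describes the list and not the difference between the times. The Alas2 window is chrX:22895200-22895499 on the plus strand, that of Sptb chr6:101170229-101170528 on the minus strand and that of Rhd chr5:152370950-152371249 on the plus strand, with the match in capitals 136, 57 and 72 bases before the start.
Alas2: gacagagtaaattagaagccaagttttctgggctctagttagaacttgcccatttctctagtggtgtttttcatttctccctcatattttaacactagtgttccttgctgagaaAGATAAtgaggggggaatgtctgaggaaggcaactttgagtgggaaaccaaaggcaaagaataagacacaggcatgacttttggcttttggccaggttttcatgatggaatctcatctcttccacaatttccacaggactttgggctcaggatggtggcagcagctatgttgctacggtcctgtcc
Sptb: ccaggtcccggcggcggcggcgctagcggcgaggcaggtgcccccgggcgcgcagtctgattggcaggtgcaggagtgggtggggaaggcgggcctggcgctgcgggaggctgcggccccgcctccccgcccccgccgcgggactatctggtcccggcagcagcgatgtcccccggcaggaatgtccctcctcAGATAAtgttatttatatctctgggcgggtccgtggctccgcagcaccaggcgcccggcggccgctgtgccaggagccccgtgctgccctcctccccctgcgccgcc
Rhd: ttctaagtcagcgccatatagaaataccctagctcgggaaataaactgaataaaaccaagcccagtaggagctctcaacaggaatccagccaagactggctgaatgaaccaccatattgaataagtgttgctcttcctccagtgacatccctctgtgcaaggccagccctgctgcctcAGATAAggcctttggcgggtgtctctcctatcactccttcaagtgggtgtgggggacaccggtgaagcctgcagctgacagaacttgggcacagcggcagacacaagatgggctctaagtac

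MHC class I genes were mostly higher at 12 days, and their list had the highest median of those examined. Class I molecules present peptides from inside the cell to CD8 T cells. In the rat they are encoded in the RT1 region, Tap1 and Tap2 carry the peptides into the endoplasmic reticulum, and B2m is the shared light chain. This list was added after earlier values had been seen. Of 46 members in the data, 23 were tested and the other 23 had too few reads. Of those tested, 17 had a log2 fold change above 0 and 6 below. At an unadjusted p under 0.05, 6 were higher, beside 1.82 percent of all genes, and 8 were higher without overlap, beside 4.68 percent. On either count 0 were lower, and 0 passed the adjusted test. The median was 0.46, beside 0.06 in the controls, 0.11 at 5 mg/mL and 0.24 at 20 mg/mL. Without the 8 sparsest libraries it was 0.61, and with each of the 6 libraries left out in turn it was 0.25 to 0.51. Gene by gene, the difference from the controls had a median of 0.16, with 12 members above 0 and 11 below. Summed over the list, 6-day libraries held 7397, 6994 and 4538 CPM and 12-day libraries 7476, 8663 and 6653 CPM, with overlap. The 20 mg/mL lungs held 7610, 5873 and 6976 CPM at 6 days and 8275, 7138 and 7862 CPM at 12 days.

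RT1-CE14, a class I heavy chain, had the smallest unadjusted p of the named genes that were higher. It stood at 26.3, 27.8 and 26.1 CPM at 6 days and at 64.4, 58.9 and 77.1 CPM at 12 days. The 12-day values were all above the 6-day values, and above the 19.2 to 36.7 CPM of the 6 control libraries. The log2 fold change was 1.32 ± 0.32 (SE, 95% interval 0.65 to 1.99), adjusted p = 0.896 (edgeR quasi-likelihood, Benjamini-Hochberg), against -0.14 in the controls, 0.01 at 5 mg/mL and 0.19 at 20 mg/mL, and the difference from the controls was 1.46 (95% interval 0.52 to 2.40). RT1-A2, a classical class I heavy chain, stood at 108, 592 and 106 CPM at 6 days and 889, 1079 and 1064 CPM at 12 days. Replicate 2 at 6 days was far above the other 6-day libraries and still below all 12-day libraries. Control libraries held 182, 142 and 255 CPM at 6 days and 325, 250 and 179 CPM at 12 days, all below the 12-day values at 10 mg/mL. The log2 fold change of RT1-A2 was 1.91 ± 0.54 (SE, 95% interval 0.79 to 3.03), with 0.38 in the controls, -0.75 at 5 mg/mL and -0.42 at 20 mg/mL, and the difference from the controls was 1.53 (95% interval -0.01 to 3.07). Leaving out 6-day replicate 2 made RT1-A2 pass, with a log2 fold change of 3.24 and an adjusted p of 0.0213 (edgeR quasi-likelihood, Benjamini-Hochberg), the only gene that any planned setting called in this comparison. With all libraries the adjusted p of RT1-A2 was 0.896 (same test). Over its 18 alternatives the log2 fold change ran from 1.53 to 3.26.

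The remaining heavy chains were not uniform. RT1-T24-2, a nonclassical class I gene, was at 1.91, 3.60 and 6.45 CPM at 6 days and 10.8, 14.2 and 21.1 CPM at 12 days, without overlap, a log2 fold change of 1.95 ± 0.62 (SE). In the 20 mg/mL lungs the same gene had a log2 fold change of 2.27, and in the controls -0.31. RT1-T24-3 was at 72.7, 134 and 54.1 CPM and then 174, 139 and 198 CPM, with 6-day replicate 2 just under the lowest 12-day library. RT1-N3 overlapped between the times, at 14.4, 23.6 and 16.4 CPM and then 21.6, 31.0 and 38.3 CPM. RT1-A1, the other classical heavy chain named here, was not higher, at 459, 219 and 319 CPM and then 251, 271 and 249 CPM, a log2 fold change of -0.37 (95% interval -1.42 to 0.68). RT1 genes are close copies that differ between rat haplotypes, so how reads were shared among them is uncertain. Tap1, the peptide transporter, was at 61.9, 82.7 and 62.4 CPM and then 89.2, 95.4 and 104 CPM, without overlap, a log2 fold change of 0.48 ± 0.18 (SE). B2m overlapped, at 4611, 3715 and 2371 CPM and then 4025, 5030 and 3470 CPM, with a log2 fold change of 0.23 (95% interval -0.33 to 0.78).

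**Figure D4:**
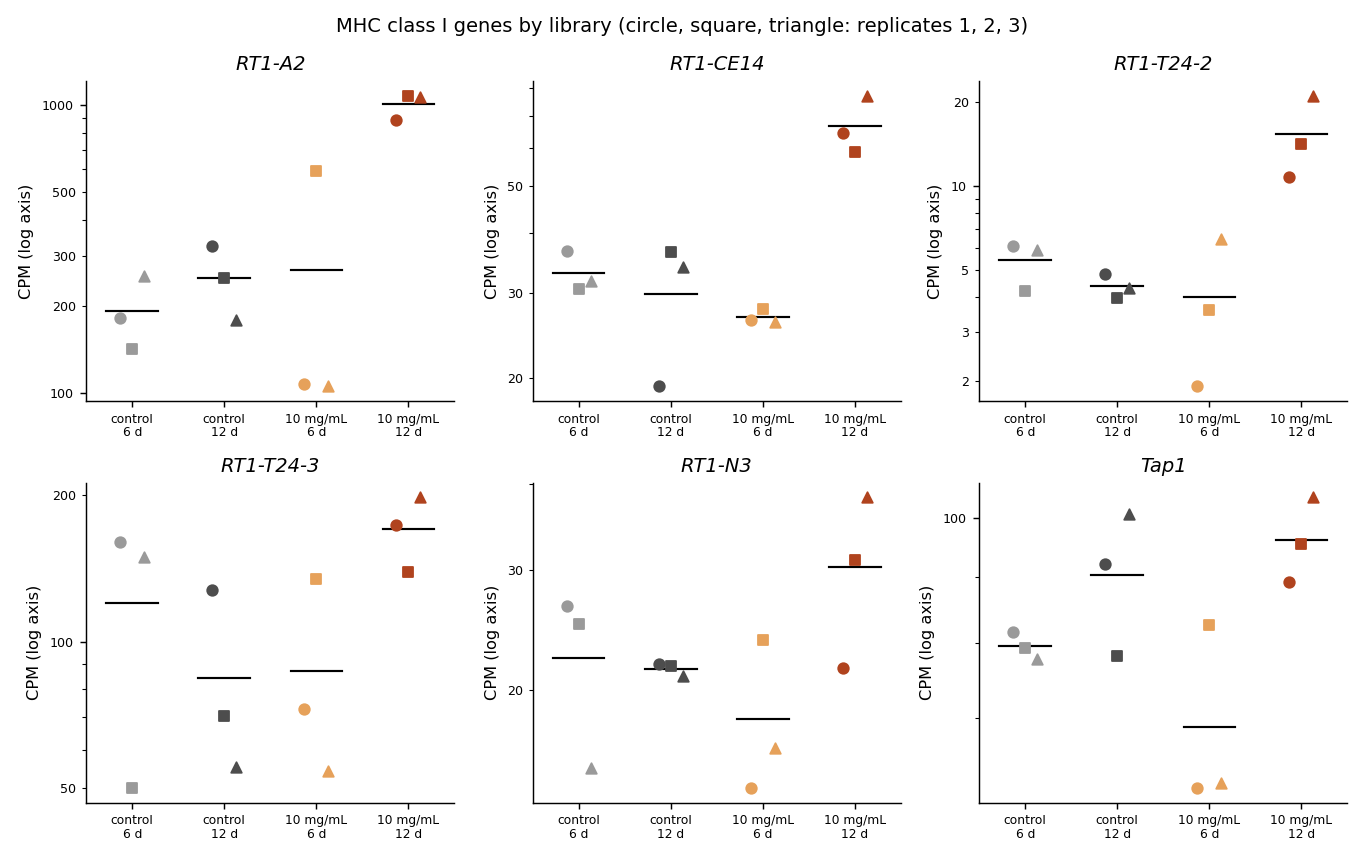
CPM on a log axis of 6 MHC class I genes in control and 10 mg/mL lungs at 6 and 12 days, with 1 point per library (circle, square and triangle for replicates 1, 2 and 3) and a bar at the group mean. The 12-day libraries at 10 mg/mL hold 889 to 1079 CPM of RT1-A2 and 58.9 to 77.1 CPM of RT1-CE14, above every other library drawn, and 6-day replicate 2 of RT1-A2 stands apart at 592 CPM.

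Class I promoters are shown because class I genes are known to answer interferons, whose response elements can hold GAAA, any 2 letters and GAAA. RT1-A2 is shown because the comparison turns on it. The table held 19 of the 23 members tested. The pattern on either strand was found in 8 of these 19 promoters, or 42.1 percent, against 3.92 percent of all 33469 promoters. The members with it were RT1-N3, RT1-S3, B2m, Tap1, Tap2, Tapbp, Psmb8 and Psmb10. RT1-CE14 and RT1-T24-2 were not among them, and members without a promoter could not be searched. Such genes are known to answer interferons, so the share describes the list and not the difference between the times. RT1-A2 (chr20:4872621-4872920, plus strand) had no match to this exact pattern in this window. Looser forms of the pattern were not searched, so an element of another form is not excluded. RT1-N3 (chr20:2666239-2666538, plus strand) had it 207 bases and Tap1 (chr20:4668494-4668793, minus strand) 121 bases before the start, both on the opposite strand to the one printed, in capitals.
RT1-A2: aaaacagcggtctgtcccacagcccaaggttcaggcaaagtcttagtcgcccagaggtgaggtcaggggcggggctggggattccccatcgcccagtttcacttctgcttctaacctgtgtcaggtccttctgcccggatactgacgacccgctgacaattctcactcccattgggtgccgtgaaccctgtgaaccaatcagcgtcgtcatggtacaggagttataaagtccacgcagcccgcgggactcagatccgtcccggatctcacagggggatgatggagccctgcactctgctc
RT1-N3: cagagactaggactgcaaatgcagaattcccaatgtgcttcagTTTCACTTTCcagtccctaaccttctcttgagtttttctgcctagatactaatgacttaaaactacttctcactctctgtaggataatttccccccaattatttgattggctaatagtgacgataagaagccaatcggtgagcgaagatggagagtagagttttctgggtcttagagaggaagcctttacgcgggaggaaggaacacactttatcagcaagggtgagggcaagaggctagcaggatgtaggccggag
Tap1: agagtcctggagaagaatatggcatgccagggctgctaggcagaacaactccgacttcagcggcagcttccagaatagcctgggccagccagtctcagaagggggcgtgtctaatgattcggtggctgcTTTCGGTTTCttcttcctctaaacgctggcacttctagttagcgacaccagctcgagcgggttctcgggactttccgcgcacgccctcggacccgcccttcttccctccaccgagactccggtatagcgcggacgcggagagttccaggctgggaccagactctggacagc

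Interferon-stimulated genes were split evenly between the directions. Their median log2 fold change was 0.01 over 29 members, with 15 above 0 and 14 below. At an unadjusted p under 0.05, 2 were higher and 1 lower, beside 1.82 and 2.64 percent of all genes. Without overlap 3 were higher and 0 lower, beside 4.68 and 4.19 percent of all genes. Irf9, the DNA-binding part of the type I interferon response complex, was at 2.27, 4.10 and 4.77 CPM at 6 days and 7.23, 7.84 and 9.81 CPM at 12 days, without overlap. Irgm, an interferon-induced GTPase, was at 9.57, 12.3 and 18.8 CPM and then 22.1, 22.5 and 21.4 CPM, also without overlap. Rsad2, the antiviral enzyme viperin, was lower in the fit (log2 fold change -1.19, 95% interval -2.24 to -0.15), from 51.8, 43.3 and 6.87 CPM to 14.2, 18.8 and 11.7 CPM, and 6-day replicate 3 was the lowest of the 6 libraries. Without the 8 sparsest libraries the list median was 0.59, with 29 members above 0 and 1 below, and Rsad2 was at 1.11. The direction of this list therefore depended on which 6-day libraries were used.

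Ribosomal protein and respiratory chain genes were lower at 12 days in the full set of libraries. These genes encode the translation machinery and the mitochondrial electron transport complexes. Of 79 cytosolic ribosomal protein genes, 77 had a log2 fold change below 0 and 2 above. At an unadjusted p under 0.05, 16 were lower, beside 2.64 percent of all genes. Without overlap 1 was lower, beside 4.19 percent of all genes. Their median was -0.60, beside -0.07 in the controls, -0.64 at 5 mg/mL and -0.03 at 20 mg/mL. The one member without overlap was Rpl17, at 740, 435 and 299 CPM at 6 days and 294, 256 and 222 CPM at 12 days. Rpl22 was at 2283, 1929 and 680 CPM and then 807, 805 and 530 CPM. Its 6-day replicates 1 and 2 were high and replicate 3 lay within the 12-day range. Summed over the list, the 6-day libraries held 88932, 70168 and 34052 CPM and the 12-day libraries 47366, 45832 and 33863 CPM. As a share of counts this list overlapped between the times (exact two-sided permutation p = 0.4). Many ribosomal protein genes have processed pseudogenes, so single members are uncertain.

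Of 70 oxidative phosphorylation genes, 65 were below 0 and 5 above. At an unadjusted p under 0.05, 6 were lower, beside 2.64 percent of all genes. Without overlap 2 were lower and 1 higher, beside 4.19 and 4.68 percent of all genes. The median was -0.40, beside -0.08 in the controls, -0.40 at 5 mg/mL and 0.01 at 20 mg/mL. Cyc1, cytochrome c1 of complex III, was at 512, 492 and 218 CPM and then 180, 297 and 182 CPM. Cox6c, a subunit of cytochrome c oxidase, was at 740, 508 and 202 CPM and then 254, 273 and 152 CPM. Ndufb2 and Ndufs4, both complex I subunits, had log2 fold changes of -0.72 and -0.64. For Cyc1, Cox6c and Ndufb2 the 6-day replicate 3 lay inside the range of the 12-day libraries, and for Ndufs4 it was the lowest of the 6. Without the 8 sparsest libraries the medians were 0.31 for the ribosomal proteins and 0.17 for oxidative phosphorylation, so both directions turned around.

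Immediate early genes, transcription factors and adaptors that cells switch on within minutes of a stimulus, had a median above that of all genes, which came near 0 without 1 library. Of 21 members tested, 18 were above 0 and 3 below, and the median was 0.45, against -0.04 in the controls. At an unadjusted p under 0.05, 2 were higher and 1 lower, beside 1.82 and 2.64 percent of all genes. Without overlap 2 were higher, beside 4.68 percent of all genes. Without 12-day replicate 3 the median was 0.10, and without the 8 sparsest libraries it was 0.29. Nr4a1, an orphan nuclear receptor, was at 1.91, 2.98 and 4.35 CPM at 6 days and 11.2, 3.67 and 21.1 CPM at 12 days, a log2 fold change of 1.96 ± 0.66 (SE, 95% interval 0.60 to 3.33). Replicate 2 at 12 days lay inside the 6-day range. Nr4a3, its relative, was at 1.56, 2.61 and 1.40 CPM and then 6.38, 3.34 and 10.4 CPM, without overlap. Ier5 was lower, at 433, 359 and 233 CPM and then 202, 281 and 212 CPM, with overlap. Replicate 3 at 12 days was highest for Fos (101 CPM, with 30.2 and 8.84 CPM in the other 12-day libraries and 14.2 to 34.9 CPM at 6 days) and for Atf3 (67.3 CPM, with 23.3 and 13.7 CPM beside it). Junb, an AP-1 subunit, was at 63.7, 92.9 and 79.1 CPM and then 104, 74.7 and 209 CPM. Summed over the list, the 12-day libraries held 2990, 2373 and 4601 CPM and the 6-day libraries 2307, 2415 and 3040 CPM, and without 12-day replicate 3 the log2 fold changes of Fos and Atf3 were -0.45 and -0.02.

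Of 14 clock genes tested, 1 was lower and 1 higher at an unadjusted p under 0.05, beside 2.64 percent of all genes lower and 1.82 percent higher. Nr1d2 encodes a REV-ERB repressor of the daily clock, and Arntl and Clock encode the activators that it opposes. Nr1d2 was at 67.2, 51.0 and 32.7 CPM at 6 days and 22.7, 28.2 and 22.1 CPM at 12 days, without overlap, a log2 fold change of -1.05 ± 0.33 (SE, 95% interval -1.73 to -0.37), beside -0.21 in the controls. Arntl went the other way, at 17.1, 14.5 and 29.9 CPM and then 31.3, 38.7 and 28.1 CPM, with 6-day replicate 3 inside the 12-day range. Clock had a log2 fold change of 0.58 (95% interval -0.08 to 1.25), Nr1d1 one of -0.87 (95% interval -1.93 to 0.20), and Dbp, an output gene of the clock, one of 0.24 (95% interval -0.48 to 0.95). The median of 14 clock genes was 0.16, with 10 above 0 and 4 below. It was -0.03 without 12-day replicate 3, 0.05 without the 8 sparsest libraries and 0.02 in a fit with a term for genes found per library. Per1 was too low to test, with 0 reads in the 6-day libraries, 2 in the 12-day libraries and 17 in the whole series. The labels give no time of day. Of 14 glucocorticoid-induced genes 9 were above 0 and 5 below, with a median of 0.14 that was -0.01 without the 8 sparsest libraries, and none had an unadjusted p under 0.05 (edgeR quasi-likelihood). In that list Fkbp5, a receptor cochaperone, had a log2 fold change of -0.19 (95% interval -0.98 to 0.60), Zbtb16, a zinc finger repressor, one of -0.40 (-2.14 to 1.33) and Cebpd, a stress-induced factor, one of 0.45 (-0.12 to 1.01), with all 12-day values of Cebpd (136 to 162 CPM) above those at 6 days (84.8 to 125 CPM).

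Macrophage genes were taken as 2 lists, and the difference between the lists was not tested. The 17 identity genes had a median of -0.32, with 6 above 0 and 11 below and none at an unadjusted p under 0.05 (edgeR quasi-likelihood), and without the 8 sparsest libraries their median was 0.27. The 26 genes of lipid-laden macrophages, the foam cells that gather in smokers' lungs, had a median of 0.10, with 16 above 0 and 10 below. At an unadjusted p under 0.05, 3 were higher and none lower, beside 1.82 and 2.64 percent of all genes. Without overlap 3 were higher and 0 lower, beside 4.68 and 4.19 percent of all genes. The median of the lipid-laden list was 0.36 without the 8 sparsest libraries and -0.03 without 6-day replicate 3. Spp1, the secreted osteopontin, was at 2.51, 17.0 and 5.75 CPM at 6 days and 125, 26.0 and 8.31 CPM at 12 days. Replicate 1 at 12 days held most of the difference, and replicate 3 lay inside the 6-day range. Its log2 fold change was 2.65 ± 1.16 (SE, 95% interval 0.25 to 5.05), while in the controls it went from 28.4, 8.40 and 20.1 CPM to 6.27, 5.78 and 2.64 CPM, and the difference from the controls was 4.62 (95% interval 1.2 to 8.05). Lpl, lipoprotein lipase, was at 18.3, 16 and 22.4 CPM and then 38.0, 24.9 and 33.9 CPM, without overlap. Abca1, the cholesterol exporter, was at 4.19, 2.49 and 6.45 CPM and then 5.53, 9.01 and 12.4 CPM, with overlap. Apoe, which carries exported cholesterol, was at 831, 1265 and 1049 CPM and then 1463, 1578 and 1654 CPM, without overlap, with a 95% interval of the log2 fold change of -0.18 to 1.33.

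Among lipid synthesis genes the smallest unadjusted p was that of Scd1, a stearoyl-CoA desaturase, which makes monounsaturated fatty acids. It was at 67.5, 43.3 and 73.2 CPM at 6 days and 243, 119 and 101 CPM at 12 days, without overlap, a log2 fold change of 1.33 ± 0.39 (SE, 95% interval 0.53 to 2.13). The controls also had a higher value at 12 days (log2 fold change 0.86), as did 5 mg/mL (0.76), while 20 mg/mL had a lower one (-1.06). Srebf1, the transcription factor of fatty acid synthesis, was at 37.5, 45.7 and 47.5 CPM and then 61.4, 62.4 and 56.9 CPM, without overlap, with a 95% interval of the log2 fold change of -0.01 to 0.94. Scd2, a second desaturase, was at 341, 277 and 321 CPM and then 497, 354 and 396 CPM, also without overlap, with a 95% interval of the log2 fold change of -0.02 to 0.83. Cyp51, of cholesterol synthesis, overlapped. The 29 genes of fatty acid and sterol synthesis had a median of 0.04, with 16 above 0 and 13 below. Of these, 1 was higher at an unadjusted p under 0.05 and 4 without overlap, beside 1.82 and 4.68 percent of all genes.

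Among the NRF2 and aryl hydrocarbon receptor genes, Hmox1 had the smallest unadjusted p. Hmox1, heme oxygenase, was at 61.1, 60.0 and 36.6 CPM at 6 days and 112, 107 and 56.8 CPM at 12 days. Replicate 3 at 12 days lay inside the 6-day range. The log2 fold change was 0.81 ± 0.34 (SE, 95% interval 0.10 to 1.51). The controls went the other way, from 95.7, 43.6 and 59.4 CPM to 42.6, 40.3 and 28.3 CPM, and the difference was 1.65 (95% interval 0.64 to 2.65). Nqo1, another NRF2 target, had a log2 fold change of -0.21 (95% interval -0.66 to 0.23), and Cyp1a1 one of 0.04 (-1.49 to 1.56), with 8.73, 3.98 and 15.3 CPM and then 14.3, 6.01 and 8.31 CPM. The 26 NRF2 genes had a median of -0.12 with 1 higher at an unadjusted p under 0.05, beside 1.82 percent of all genes. The 7 aryl hydrocarbon receptor targets had a median of 0.13, with 0 at such a p. Heat shock genes (median -0.13, 23 tested), ER stress genes (-0.15, 21 tested), p53 targets (-0.03, 19 tested) and complement genes (-0.07, 20 tested) had 0 members at an unadjusted p under 0.05 (edgeR quasi-likelihood). Hypoxia genes (-0.10, 17 tested) had 1, lower, beside 2.64 percent of all genes. Without the 8 sparsest libraries the medians were 0.20 for NRF2, 0.11 for heat shock, 0.04 for ER stress and 0.23 for complement genes, on the other side of 0. In the heat shock list Hspa1b was at 163 CPM in 12-day replicate 3 and at 27.5 to 58.2 CPM in the other 5 libraries, and reads of its near copy Hspa1a may be shared with it. Adm, the vasodilator peptide adrenomedullin, was at 64.5, 89.5 and 95 CPM at 6 days and 41.7, 51.2 and 56.0 CPM at 12 days, without overlap, a log2 fold change of -0.74 ± 0.23 (SE, 95% interval -1.22 to -0.26).

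Among inflammatory genes, single members separated while the lists did not. Tlr4, the endotoxin receptor, was at 1.91, 2.98 and 1.40 CPM at 6 days and 6.81, 5.34 and 5.31 CPM at 12 days, without overlap, a log2 fold change of 1.46 ± 0.49 (SE, 95% interval 0.44 to 2.48), beside -0.03 in the controls, -0.58 at 5 mg/mL and -0.13 at 20 mg/mL. Csf1, the macrophage growth factor, was at 8.62, 11.1 and 22.7 CPM and then 30.9, 36.7 and 31.6 CPM, without overlap, a log2 fold change of 1.23 ± 0.47 (SE). Ccl2, which recruits monocytes, was at 5.62, 7.09 and 7.15 CPM and then 22.5, 14.0 and 15.8 CPM, without overlap, with a 95% interval of the log2 fold change of -0.20 to 2.99. Il1b had a log2 fold change of -0.56 (95% interval -1.26 to 0.14), Cxcl1, a neutrophil chemokine, one of 0.45 (-1.19 to 2.09) and Mmp12, the macrophage elastase, one of 0.35 (-1.76 to 2.46). The 22 NF-kappaB feedback and cytokine genes had a median of -0.01 with 10 above 0 and 12 below, and 0.11 without the 8 sparsest libraries. Alox15, a lipoxygenase of macrophages and eosinophils, was at 26.7, 19.1 and 17.4 CPM at 6 days and 4.96, 5.84 and 6.13 CPM at 12 days. The groups were far apart, with a log2 fold change of -1.90 ± 0.55 (SE, 95% interval -3.03 to -0.77). Alox15 also had lower values at 12 days in the 5 mg/mL lungs (-2.04), with -0.89 at 20 mg/mL and -0.40 in the controls.

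Mast cell genes had a median of -1.06 over 18 members, with 16 below 0, and 1 library stood apart. The median was -0.13 in the controls, -0.73 at 5 mg/mL and 0.27 at 20 mg/mL. Summed over the list at 10 mg/mL, 6-day replicate 1 held 867 CPM, and the other 5 libraries 372 to 495 CPM. Mcpt8, a protease of basophils and mast cells, was at 83.6, 27.5 and 10.8 CPM at 6 days and 4.96, 11.7 and 16.2 CPM at 12 days. Cpa3, the mast cell carboxypeptidase, was at 154, 39.0 and 17.4 CPM and then 11.6, 22.5 and 42.2 CPM. Both overlapped. Of the 18 members 1 was lower at an unadjusted p under 0.05, beside 2.64 percent of all genes. Without the 8 sparsest libraries the median was 0.42. The 18 neutrophil genes had a median of -0.29, which was 0.53 without those libraries and 0.15 without 6-day replicate 1. Lcn2, lipocalin 2 of neutrophils and airway epithelium, stood at 196 CPM in 12-day replicate 1 and at 15.0 to 50.5 CPM in the other 5 libraries. The 29 T and NK cell genes had a median of -0.16, or 0.39 without those libraries, 0.16 without 6-day replicate 2 and 0.05 without 12-day replicate 3. In that list Ncr1, an activating NK cell receptor, was at 0.359, 0.373 and 1.26 CPM and then 2.98, 2.84 and 2.32 CPM, without overlap, whereas Cd3d, a T cell receptor subunit, had a log2 fold change of -1.08 (95% interval -2.18 to 0.03). The 18 B and plasma cell genes had a median of -0.36, with 12 below 0 and none at an unadjusted p under 0.05 (edgeR quasi-likelihood). Fcrla, a B cell Fc receptor-like gene, ranged from 11.4 to 133 CPM at 6 days and from 15.0 to 48.6 CPM at 12 days.

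Cell cycle genes had a small median difference, with single members further apart. Of 41 members tested, 31 were above 0 and 10 below. At an unadjusted p under 0.05, 4 were higher, beside 1.82 percent of all genes, and 4 were higher without overlap, beside 4.68 percent. None was lower on either count. The median was 0.15, beside 0.05 in the controls and 0.25 without the 8 sparsest libraries. It was 0.03 without 12-day replicate 1 and 0.08 in a fit with a term for genes found per library. Mki67, the proliferation antigen, was at 11.2, 15.3 and 17.8 CPM at 6 days and 33.9, 18.7 and 29.3 CPM at 12 days. The groups did not overlap, and the log2 fold change was 0.89 ± 0.30 (SE, 95% interval 0.26 to 1.52), beside 0.03 in the controls. Bub1, a spindle checkpoint kinase, was at 1.44, 1.62 and 3.09 CPM and then 8.22, 6.51 and 4.77 CPM, without overlap, a log2 fold change of 1.67 ± 0.56 (SE). Ccnb2, a mitotic cyclin, was at 0.598, 0.746 and 2.24 CPM and then 6.95, 2.17 and 3.68 CPM, with overlap. Kif11, a spindle motor, also overlapped.

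Alveolar lists had medians near that of all genes with all libraries kept. Sftpc, surfactant protein C, was at 11611, 9566 and 7269 CPM at 6 days and 10734, 9714 and 8139 CPM at 12 days, a log2 fold change of 0.01 (95% interval -0.66 to 0.68). Ager was at -0.31 (-1.06 to 0.44). The 21 type II genes had a median of 0.03 and the 20 type I genes one of -0.14. At an unadjusted p under 0.05, 1 type II member was higher, beside 1.82 percent of all genes, and 0 type I members had such a p. Without overlap 5 type II members were higher and 1 lower, beside 4.68 and 4.19 percent of all genes. Without the 8 sparsest libraries the medians were 0.20 for type II and 0.04 for type I genes. The 13 club and goblet cell genes had a median of -0.40, or 0.35 without those libraries. Scgb1a1, the club cell secretoglobin, ranged widely at 12 days, at 18349, 9481 and 3095 CPM, against 11638, 16549 and 12490 CPM at 6 days, and replicate 3 at 12 days was the lowest library. The 25 ciliated cell genes had a median of -0.42, with 21 below 0, beside -0.20 without the 8 sparsest libraries. It was 0.01 without 12-day replicate 3 and -1.06 without 12-day replicate 1. Of the ciliated list, 1 member was lower at an unadjusted p under 0.05, beside 2.64 percent of all genes. It was Tubb4b, a ciliary tubulin that dividing cells also use. Tubb4b was at 276, 245 and 187 CPM and then 152, 147 and 118 CPM, without overlap. Foxj1 ranged from 1.80 to 11.5 CPM at 6 days and from 1.64 to 12.6 CPM at 12 days, so no difference could be read from it.

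Vessel, matrix and neighbouring tissue genes had few members that separated. The 29 endothelial genes had a median of 0.12 with 21 above 0. At an unadjusted p under 0.05, 1 member was higher, beside 1.82 percent of all genes. It was Sox18, a vascular transcription factor, at 0.12, 0.373 and 1.82 CPM and then 12.2, 2.34 and 2.45 CPM. Without the 8 sparsest libraries the endothelial median was -0.12. The 33 fibroblast and matrix genes had a median of -0.13. Col3a1, the fibrillar collagen of soft tissue, was at 5010, 5539 and 2991 CPM and then 1966, 3345 and 2149 CPM, with overlap, a log2 fold change of -0.86 (95% interval -1.59 to -0.13) beside -0.62 in the controls. Col1a1 was at 1312, 1364 and 1431 CPM and then 941, 1034 and 1167 CPM, without overlap, yet with a log2 fold change of -0.39 (95% interval -1.60 to 0.82). Wt1, a mesothelial transcription factor, was at 0, 0.249 and 0.842 CPM and then 3.54, 6.51 and 1.09 CPM, while the summed mesothelial list overlapped, at 493 to 647 CPM and then 477 to 662 CPM. Heart muscle genes, of which 17 of 24 in the files were tested, summed to 258 to 462 CPM at 6 days and 248 to 376 CPM at 12 days, against up to 5386 CPM elsewhere in the series. Among the heart genes too low to test, Myl2, Myl3 and Nppb had 0 reads in all 6 libraries. Skeletal muscle genes summed to 30.7 to 55.8 CPM and adipocyte genes to 579 to 1018 CPM in the 6 libraries, overlapping between the times. Smooth muscle genes (19 tested) had a median of -0.25, MHC class II and dendritic cell genes (16 tested) 0.08, platelet genes (6 tested) -0.33, histone genes (10 tested) -0.25 and thymus and lymph node genes (5 tested) -0.61, with 0 members of these at an unadjusted p under 0.05 (edgeR quasi-likelihood), and without the 8 sparsest libraries the histone and lymphoid medians were 0.15 and 0.35.

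**Figure D5:**
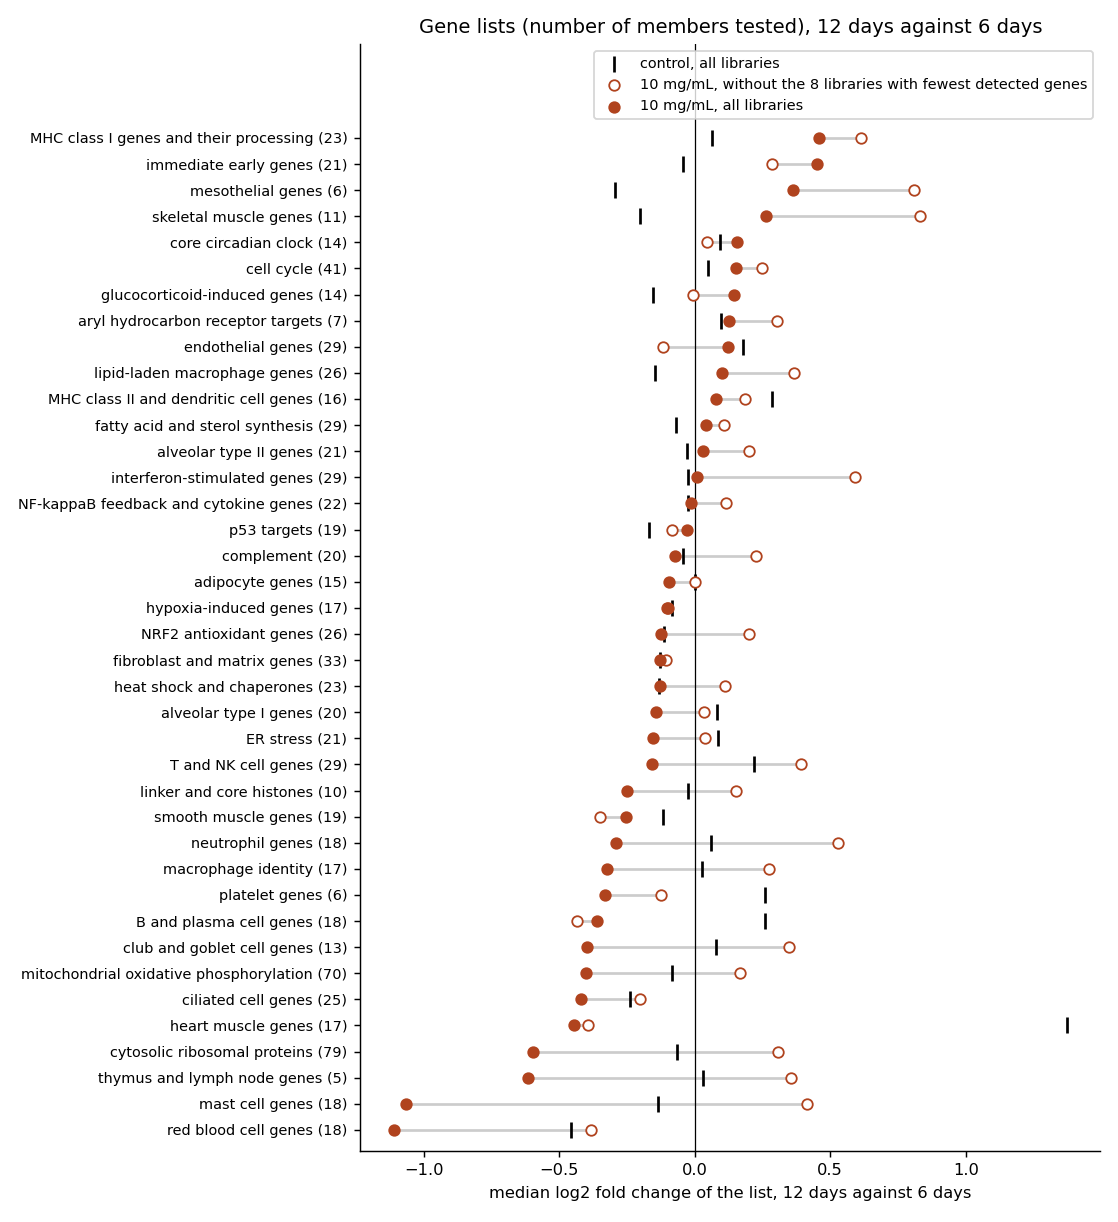
Median log2 fold change between 12 and 6 days for each gene list at 10 mg/mL with all libraries (filled circles) and without the 8 sparsest libraries (open circles), and in controls (bars), with the number of members tested in parentheses. The MHC class I median stays above 0 (0.46 and 0.61) and the red blood cell median below 0 (-1.11 and -0.38), while ribosomal protein, oxidative phosphorylation, mast cell, neutrophil and macrophage medians cross 0.

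The other named genes, chosen by smallest unadjusted p among genes of at least 5 CPM without overlap, had diverse roles. Of those higher at 12 days, Lrrc4, a synaptic adhesion protein, was at 7.18, 10.4 and 11.8 CPM and then 27.2, 24.9 and 25.1 CPM, a log2 fold change of 1.39 ± 0.40 (SE, 95% interval 0.57 to 2.22). Tm9sf1, a membrane protein of the endosomal system, was at 0.957, 1.37 and 6.03 CPM and then 19.9, 10.7 and 12.1 CPM. Rpap1, an RNA polymerase II partner, Zfp217, a zinc finger factor, Pitrm1, a mitochondrial peptidase, and Rasl12, a small GTPase, had log2 fold changes of 0.95, 1.35, 1.08 and 0.93. Of those lower, Klhl22, an adaptor of ubiquitin ligases, was at 26.3, 21.9 and 20.1 CPM and then 10.4, 15.0 and 14.2 CPM. Dhrs4, a carbonyl reductase, was at 57.2, 53.9 and 35.3 CPM and then 34.7, 25.2 and 30.8 CPM, and the gap between the groups was narrow. The methyltransferases Mettl23 and Ntmt1 had log2 fold changes of -1.01 and -0.73. Lace1, a mitochondrial ATPase, had -1.13, Zfp637 -0.53 and Tmem160 -0.75. None of these passed the adjusted test.

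The time difference at 10 mg/mL was then set against that of the controls, which asks whether the exposed lungs differed between the times otherwise than unexposed lungs over the same days. Again 0 of 11421 genes were called, with 213 at an unadjusted p under 0.05, of which 98 were higher and 115 lower (edgeR quasi-likelihood). Against the mean time difference of the controls, 5 and 20 mg/mL, 0 were called and 201 had an unadjusted p under 0.05, while DESeq2 called Orm1 and Ckmt2. Orm1, an acute-phase plasma protein gene, had 0 reads in all 6-day libraries at 10 mg/mL and 8.37, 1.67 and 1.36 CPM at 12 days, and Ckmt2, a muscle creatine kinase, was at or below 0.497 CPM in all 6 libraries. Both differences share the 10 mg/mL and control libraries with the comparison above. Cfc1, a co-receptor of Nodal signals, was at 11.6, 6.34 and 2.10 CPM at 6 days and 1.84, 1.83 and 1.77 CPM at 12 days at 10 mg/mL, and at 0.893, 2.44 and 2.81 CPM and then 4.04, 5.42 and 2.64 CPM in controls. Its difference from the controls was -2.84 (95% interval -4.55 to -1.14) and from the mean of the other doses -2.73. Trim16, an E3 ubiquitin ligase, was at 9.81, 10.6 and 3.09 CPM and then 2.41, 0.834 and 0.136 CPM, against 0.383, 1.90 and 0.844 CPM and then 2.22, 3.07 and 1.80 CPM in controls. At 10 mg/mL, 6-day replicates 1 and 2 were above every control library for Cfc1 and replicate 3 was not, while for Trim16 all 3 were, replicate 3 by 3.09 against 3.07 CPM. Mcam, the endothelial adhesion molecule CD146, was at 301, 437 and 467 CPM and then 287, 238 and 275 CPM, against 280, 320 and 342 CPM and then 376, 476 and 399 CPM in controls, so the fitted time differences had opposite signs, with a difference of -1.0 (95% interval -1.68 to -0.32).

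Other genes with a smaller p in these differences were as follows. Fam110c, a centrosome-associated protein, was at 0.838, 2.24 and 1.26 CPM and then 4.11, 10.2 and 3.41 CPM at 10 mg/mL, and its difference from the controls was 3.10 (95% interval 0.97 to 5.23). Ccdc117 (1.81), Snupn, the importer of spliceosomal RNPs (1.11), and Nagk, a sugar kinase (0.91), had higher time differences than the controls. Wls, which carries Wnt proteins to the surface (-1.08), and Cdkn2c, an inhibitor of cyclin D kinases (-1.07), had lower ones. Against the mean of the other doses, RT1-A2 was at 2.17, RT1-CE14 at 1.30, Tlr4 at 1.71 and Arhgap8 at 1.40. Elf5, a transcription factor of distal lung epithelium, was at -1.28, and Lrpprc, which stabilises mitochondrial mRNA, at -0.72.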

How the data were processed

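RNA was sequenced from 24 rat lung samples, 6 of them described here. The authors deposited raw read counts per gene, 1 table per sample, and per the submitters' processing notes Bowtie2, bedtools and the rn6 build were used. The sources used here do not give versions, the annotation or the use of strand. Each table held 17048 rows. For 149 repeated symbols the row with the highest total was kept, which left 16881 genes and removed 167 rows with 0.772 percent of counts.

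Totals ran from 4758014 to 10989792 counts per library, with a median of 6795265. Arms of 3 libraries limit precision, and the part that depth plays in it was not tested. Counts were scaled by TMM and filtered with filterByExpr, and 11421 genes were tested with the edgeR 4.0.16 quasi-likelihood test (R 4.3.3) on 8 group means with 16 residual degrees of freedom. P-values were adjusted by Benjamini-Hochberg over all genes, with a threshold of 0.05, two-sided. CPM values use TMM-scaled library sizes. DESeq2 1.42.0 and limma 3.58.1 (voom with quality weights) were alternatives, along with other scalings, no filter, removal of ribosomal RNA and globin genes, a detected-gene covariate, a replicate block, and left-out libraries. Smallest replicate differences were well above sampling noise (chi-square per degree of freedom at least 14.0), so no library was counted as a duplicate. The fit was tested on simulated data.

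Named genes were up to 12 in each direction (5 for the differences between time effects) whose groups did not overlap and whose higher group averaged 5 CPM or more. Since none passed the adjusted test, they were taken by smallest unadjusted p, leaving out gene models without a name. Up to 4 members per list by p and a fixed set of genes, such as Cyp1a1 and Sftpc, were added. Members named beyond this rule, among them RT1-A1, B2m, Tal1, Gypc, Apoe, Foxj1, Pecam1, Orm1 and Ckmt2, were chosen after their values were seen. Members and lists were chosen with earlier results of these data known. Some results that the rule would name are not reported here.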

Additional observations from a re-analysis of the deposited data

How the results depend on the processing

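The main comparison kept 0 calls under RLE and upper-quartile scaling, no filter, DESeq2, limma voom, only the groups compared, the detected-gene covariate, removal of globin and ribosomal RNA genes and removal of repeated symbols. Leaving out 1 library at a time gave 0 to 1 calls, the 1 being RT1-A2. Without the 8 sparsest libraries, which leaves 1 library at 6 days, RT1-A2 had a log2 fold change of 3.26. With 6-day replicate 3 alone and the other groups kept, its log2 fold change was also 3.26. A test in either fit rests on the spread of the other groups. The difference from the mean of the other doses gave 2 calls with DESeq2 (Orm1 and Ckmt2). Leaving out 1 library gave 0 to 1, the 1 being RT1-A2. Without the 8 libraries this difference was 3.67 for RT1-A2. The control comparison and the difference from the controls kept 0 calls under every setting run. For the mean of the other doses, only the groups compared are all groups, so that setting was not run separately. The count at an unadjusted p under 0.05 was 510, and it was 1851 with limma voom, 313 with the covariate, 302 without the 8 libraries and 144 with 6-day replicate 3 alone, a setting chosen after seeing the data. For the control comparison it was 281, and 1573 with limma voom, 478 with the covariate and 680 without the 8 libraries. For the difference from the controls it was 213, and 1802 with limma voom, 778 without 6-day replicate 3 and 503 without control 6-day replicate 1. For the mean of the other doses it was 201, and 840 with limma voom and 913 without 6-day replicate 3.

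Deviations from the group means at 10 mg/mL had correlations of -0.02, 0.13 and 0.30 between same-numbered libraries. Between differently numbered libraries they were -0.30 to 0.21. Pairing by number was not tested, and the numbers were not taken as pairs. With the replicate number as a block, 0 genes were called and 643 had an unadjusted p under 0.05.

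Of 119 named results, 26 changed sign somewhere, in 51 of 2186 values. Of 702 alternative list medians, 588 differed from the main one by less than the standard deviation of the list mean between replicate libraries. No list median was reversed under RLE or upper-quartile scaling, while several crossed 0 without the 8 libraries, as given above. Without the 8 libraries and with 6-day replicate 3 alone, log2 fold changes were 0.052 and 0.049 for Ager, 0.54 and 0.54 for Cd3d, -0.00648 and -0.0096 for Clock, 0.17 and 0.17 for Cox6c, 0.56 and 0.55 for Cpa3, -0.82 and -0.83 for Cxcl1, 0.011 and 0.0089 for Cyc1, -0.67 and -0.68 for Cyp1a1, 1.27 and 1.26 for Fcrla, 0.10 and 0.10 for Il1b, 0.024 and 0.019 for Mcpt8, 0.12 and 0.12 for Ndufb2, 0.24 and 0.24 for Ndufs4, 0.12 and 0.12 for Nqo1, 0.072 and 0.070 for Rpl22, 0.0895 and 0.0865 for Rps15, and 1.11 and 1.11 for Rsad2. With the covariate Ager was at 0.050 and Cyp1a1 at -0.19. Leaving out 1 library gave -0.024 to 1.26 for Atf3, -0.38 to 0.59 for Cyp1a1, -0.034 to 0.42 for Dbp, -0.43 to 0.035 for Fkbp5, -0.45 to 1.29 for Fos, -0.18 to 1.32 for Hspa1b, -0.47 to 1.00 for Mmp12, -1.11 to 0.043 for Scgb1a1, -0.15 to 0.18 for Sftpc and -0.69 to 0.11 for Zbtb16. The causes were not tested. Genes near 1 CPM, such as Epb42, Sptb, Wt1 and Bub1, rest on few reads.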
